A study of Arabidopsis thaliana with 72 samples.

Results

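Shoots of Arabidopsis thaliana seedlings sampled 3 h after t-chalcone were compared with shoots sampled 3 h after the EtOH control. Each group had 3 libraries, taken by their labelled tissue, treatment and time. These 6 libraries were 6 of 72 deposited columns, of which 66 were distinct. All 22884 genes of the table were considered and 19116 passed the filter on low values. The seedlings were 14 days old and had grown on agar plates with 1% sucrose, 24 seeds to a plate, at 22 °C with 16 h of light and 8 h of dark. At 7 h after lights on, a plate received 8 mL of 21 µM t-chalcone, a concentration the protocol calls the IC50, or 0.1% EtOH, so that sampling at 3 h fell nominally 10 h after lights on. No genotype, transgene or ecotype is given in the sources used here. Whether replicates were grown on separate plates is not stated, so each p-value reflects variation among libraries that might be partly technical.

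t-Chalcone is an aromatic ketone with an alpha,beta-unsaturated carbonyl group, and it carries the carbon skeleton from which plants build flavonoids. Plant cells handle reactive foreign compounds in stages: cytochromes P450 and reductases modify them, glutathione transferases and glycosyltransferases attach a glutathione or a sugar, and transporters move the conjugate out of the cytosol. TGA transcription factors, which bind sites with the core TGACG, are known to switch on many genes of this programme. The circadian clock, by contrast, changes many transcripts through every day without any treatment. Its morning MYB factors CCA1 and LHY hold down evening genes through a promoter sequence called the evening element, AAAATATCT.

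Depth differed between the groups. Depth, in units of 1000000 recovered whole counts, was 21.2, 15.3 and 20.9 in the EtOH libraries and 1.51, 12.2 and 4.51 in the t-chalcone libraries, in replicate order, so the t-chalcone group was the shallower one. The lowest value a gene could take was 0.399, 0.546 and 0.383 in the former and 4.53, 0.663 and 1.64 in the latter. Photosynthesis genes, the markers of shoot tissue, had a mean log2 level of 13.6 to 14.4 in the 6 libraries, against 5.23 to 8.42 over the root libraries. The 15 root marker genes summed to 7154 to 8376 in the EtOH and to 6853 to 11655 in the t-chalcone libraries, with 0, 0 and 0 of them at the lowest value in the former and 11, 1 and 7 in the latter. Of these 15, 11 passed the filter on low values. Root libraries at 3 h had sums of 62896 to 83015. No value in the table is 0 and each library's lowest value equals 1 count, but whether genes with fewer were dropped or 1 was added before scaling is not stated, so a gene at the lowest value may have had no read. Across genes, Pearson's r between libraries was 0.981 to 0.988 within EtOH, 0.953 to 0.972 within t-chalcone and 0.954 to 0.974 between the groups. t-Chalcone replicate 2 stood nearer to EtOH replicates 2 and 3 (0.974 and 0.974) than to replicates 1 and 3 of its own group (0.953 and 0.969), and leaving it out gave the highest total of calls. In such bulk samples fewer cells of a type and less RNA per cell cannot be told apart. Genes with close copies, such as the light-harvesting genes, the neighbouring GSTU genes, BHLH38 and BHLH39, OPR1 and OPR2, AOC1 and AOC2 or the Rubisco small subunits, may share reads, and their single values are uncertain to that extent.

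With limma, 1307 genes passed an adjusted p of 0.05, which is 6.84% of those tested. Of these, 311 were higher (1.63%) and 996 were lower (5.21%) with t-chalcone. The median change of all tested genes was -0.11, where a change is the difference of t-chalcone minus EtOH on the log2(deposited value + 1) scale and ± is its standard error. The balance of higher and lower calls depended on the scaling. With the libraries scaled by trimmed mean of M-values (TMM) the median change was -0.0025 and 804 genes passed (4.21%), of which 486 were higher (2.54%) and 318 lower (1.66%), and edgeR's quasi-likelihood test on the recovered whole numbers called 620 (3.24%), 485 higher (2.54%) and 135 lower (0.706%). Of the deposited-scale calls, 310 of the 311 higher and 318 of the 996 lower were also called with TMM, and 293 higher and 127 lower were called by all 3 fits. All 3 t-chalcone libraries lay above all 3 EtOH libraries in 5.76% of genes and below them in 17.1%. The total depended on single libraries, from 275 genes without EtOH replicate 2 to 3018 without t-chalcone replicate 2. Without t-chalcone replicate 2, 370 of 19103 tested genes were called higher and 2648 lower. In every fit that left out 1 library as well as with TMM, median-of-ratios scaling and edgeR, 113 higher and 61 lower genes held.

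**Figure D1:**
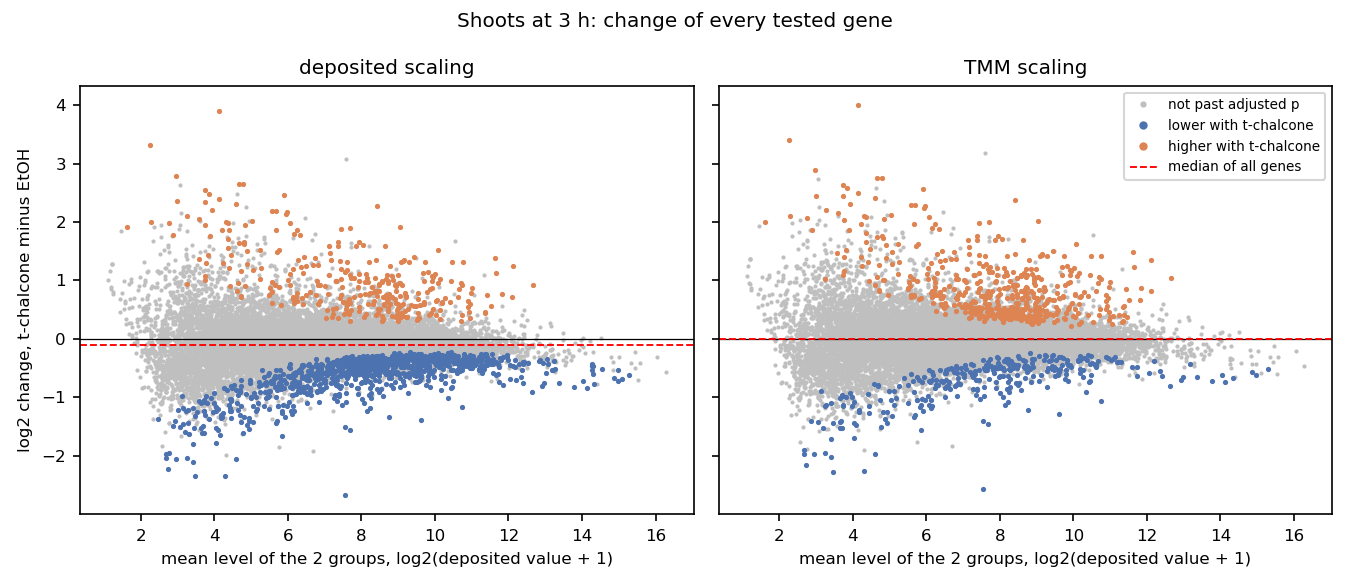
Change of each of the 19116 tested genes (t-chalcone minus EtOH, log2 scale, vertical axis) against its mean level in both groups (log2 of the deposited value + 1, horizontal axis), with the deposited scaling on the left and TMM on the right. Orange and blue points passed the adjusted p as higher (311 and 486) or lower (996 and 318), and the dashed line is the median of all genes.

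The largest increases, taken among genes whose higher group averaged 50 or more and whose groups did not overlap, mixed defence, iron, clock and detoxification genes. AT3G59930, annotated as a defensin-like protein, stood at 3.59, 3.82 and 3.07 in the EtOH and at 49.9, 93.5 and 60.5 in the t-chalcone libraries. It rose by 3.89 ± 0.32 (adjusted p = 9.22e-08), and every t-chalcone library was far above every control. AT3G13310, which encodes a DnaJ-domain chaperone, went from 148, 148 and 157 to 458, 1007 and 846. That is a rise of 2.27 ± 0.21 (adjusted p = 6.84e-07), with the shallowest t-chalcone library, replicate 1, as the lowest of its group. FAMT (AT3G44860), a farnesoic acid methyltransferase gene, was at 12.4, 6 and 10.7 and at 36.3, 63 and 113. Its t-chalcone libraries were spread widely and the change was 2.65 ± 0.73 (adjusted p = 0.0305), a call kept in only 1 of the 6 fits that left out 1 library (highest adjusted p = 0.134, without EtOH replicate 2). PDF1.2b (AT2G26020), a plant defensin gene, was at 4.38, 10.4 and 15 and at 58.9, 25.2 and 75.3. It rose by 2.31 ± 0.50 (adjusted p = 0.00834), but not past the threshold without EtOH replicate 1 or t-chalcone replicate 3 (highest adjusted p = 0.06). AT3G25572, which has no product name in the annotation, rose by 2.01 ± 0.44 (adjusted p = 0.00963), a call lost without t-chalcone replicate 1 or 3 (highest adjusted p = 0.0545). The other 10 of the 15 largest increases were COR27, AT2G29500, BHLH100, AT4G33980, BHLH39, GSTU25, BHLH38, ELF4, CYP81D11 and GSTU1, which are described with their groups. All 15 were also called with TMM, edgeR and DESeq2, and 9 in every fit that left out 1 library.

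The 15 largest decreases were smaller in size than the increases, and most are genes without a symbol. AT1G15830, an uncharacterized gene beside the abundant LHCB6, stood at 82.9, 97.1 and 87 with EtOH and at 18.1, 75 and 14.7 with t-chalcone. It fell by 1.66 ± 0.33 (adjusted p = 0.00479), with t-chalcone replicate 2 close to the controls, and edgeR did not call it (adjusted p = 0.0966). AT1G64500, annotated as a glutaredoxin family protein, was at 451, 370.0 and 239 and at 109, 156 and 90. The groups were well apart, with a change of -1.56 ± 0.26 (adjusted p = 0.0013). AT5G48490, annotated in a lipid-transfer protein superfamily, fell from 499, 503 and 356 to 172, 252 and 172, a change of -1.19 ± 0.23 (adjusted p = 0.00458). NIP6;1 (AT1G80760), a membrane channel of the NOD26-like family known for boron transport, changed by -1.20 ± 0.24 (adjusted p = 0.00518), and AT5G24580, annotated with heavy metal transport, by -1.41 ± 0.24 (adjusted p = 0.00112). AT1G11700 (-1.42 ± 0.26), AT5G22390 (-1.29 ± 0.23), AT3G02910 (-1.34 ± 0.28), the peroxidase gene AT4G11290 (-1.27 ± 0.28), the lipid-binding ORP4C (AT5G57240, -1.24 ± 0.30) and the transporter gene UMAMIT14 (AT2G39510, -1.21 ± 0.35) belonged to the same 15. So did AT1G29965 (-1.43 ± 0.33) and AT5G28920 (-1.24 ± 0.29), which both overlap another gene in the annotation, so that their reads may belong to it. LHY and PAL4 complete the 15 and are described below. With TMM 14 of the 15 remained lower and with edgeR 11; UMAMIT14 was the exception under TMM (adjusted p = 0.0649) and passed in 0 of the 6 fits that left out 1 library. In those fits AT1G29965, AT3G02910, AT4G11290, AT5G28920, ORP4C and UMAMIT14 reached adjusted p-values of 0.0646 to 0.113 at their highest, as did LHY (0.0628) and PAL4 (0.0839).

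Glutathione transferases, which attach glutathione to reactive compounds, were in part higher in the t-chalcone shoots. Of 35 tested, 8 rose and 0 fell, with a list median of 0.38 beside -0.11 over all genes, and TMM gave 9 and 0. The 8 were 7 of the tau class, GSTU1, GSTU4, GSTU7, GSTU8, GSTU19, GSTU24 and GSTU25, and GSTZ1 of the zeta class, known for its part in tyrosine breakdown. GSTU19 (AT1G78380), the most abundant of them, was at 3030.9, 3072.5 and 2569.2 in the EtOH libraries and at 6962, 7076 and 6455 in the t-chalcone libraries. The spread within each group was small beside the difference, a rise of 1.24 ± 0.14 (adjusted p = 6.74e-06). GSTU25 (AT1G17180) had the largest change, from 15.5, 39.3 and 33.4 to 136, 115 and 121. It rose by 2.13 ± 0.41 (adjusted p = 0.0043), and its neighbour GSTU24 (AT1G17170) went from 303, 279 and 122 to 766, 717 and 524, a rise of 1.60 ± 0.44 (adjusted p = 0.0292). GSTU1 (AT2G29490) and GSTU7 (AT2G29420) lie in another cluster of tau genes. GSTU1 went from 138, 103 and 81.3 to 453, 369 and 363 (1.90 ± 0.29, adjusted p = 0.000528), and GSTU7 from 476, 430.0 and 289.8 to 1019.8, 983 and 916 (1.31 ± 0.24, adjusted p = 0.00308). GSTU4 (AT2G29460, 1.79 ± 0.43), GSTU8 (AT3G09270, 0.90 ± 0.28) and GSTZ1 (AT2G02390, 0.52 ± 0.12) rose as well. Leaving out 1 of the 6 libraries at a time gave 5 to 9, 5 without EtOH replicate 2 or t-chalcone replicate 3. Without EtOH replicate 3, 1 was also called lower, beside 776 of all 19104 genes tested. Without t-chalcone replicate 2, 2 were called lower, beside 2648 of all 19103. With the 6 libraries fitted alone 6 were higher. GSTU25, GSTU19, GSTU7 and GSTU1 passed in each of the 6 fits with a library left out, and the others reached adjusted p-values of 0.0619 to 0.132 in at least 1 of them; GSTU8 passed in 0 of the 6.

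Other detoxification genes showed the highest median, 1.104, of the 31 lists, whose members were chosen with earlier results of these data known. Of 24 tested, 14 rose and 0 fell, the same counts as with TMM. Among those that modify a compound, the cytochrome P450 gene CYP81D11 (AT3G28740) was at 385, 312 and 142 with EtOH and at 1206, 912 and 849 with t-chalcone. It rose by 1.92 ± 0.38 (adjusted p = 0.0056), and CYP72A8 (AT3G14620, 1.35 ± 0.25) and CYP72A15 (AT3G14690, 0.63 ± 0.15) rose with it. AER (AT5G16970), an alkenal reductase that acts on alpha,beta-unsaturated carbonyls, went from 1206, 1231 and 879 to 2833, 2595 and 2717. Its rise was 1.31 ± 0.19 (adjusted p = 0.000183), and the reductase genes OPR1 (AT1G76680, 1.38 ± 0.38) and OPR2 (AT1G76690, 1.11 ± 0.24), related to the enzymes of jasmonate synthesis, also rose. Glycosyltransferases that attach a sugar rose in 4 cases. UGT73B3 (AT4G34131) was at 162, 138 and 92.4 and at 295, 318 and 257 (1.17 ± 0.32, adjusted p = 0.0278), and UGT73B4 (AT2G15490, 1.64 ± 0.46), UGT73B5 (AT2G15480, 1.34 ± 0.32) and UGT75B1 (AT1G05560, 1.13 ± 0.27) moved the same way. UGT74E2 (AT1G05680) did not pass although its groups did not overlap, at 159.8, 159 and 46.8 and at 476, 379 and 204 (1.64 ± 0.82, adjusted p = 0.235). CYP81D8 (AT4G37370) did not pass either, with overlapping values of 339.6, 192 and 139.9 and 335, 597 and 213. For export, ABCC2 (AT2G34660), a vacuolar pump for glutathione conjugates, went from 636, 611 and 456 to 1074, 984 and 875, a rise of 0.79 ± 0.15 (adjusted p = 0.0043). The plasma membrane transporter ABCG40 (AT1G15520, 1.60 ± 0.43) and the stress transcription factors NAC032 (AT1G77450, 0.75 ± 0.23) and NAC102 (AT5G63790, 0.96 ± 0.18) were the remaining members that rose. With 1 library left out in turn the count was 6 to 12, 6 without EtOH replicate 3 or t-chalcone replicate 1 and 7 without EtOH replicate 2, and with the 6 libraries fitted alone 10 were higher. OPR2, ABCC2, CYP72A8, CYP81D11, AER and NAC102 passed in each of the 6 fits with a library left out, and the others reached adjusted p-values of 0.0666 to 0.217 in at least 1 of them.

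**Figure D2:**
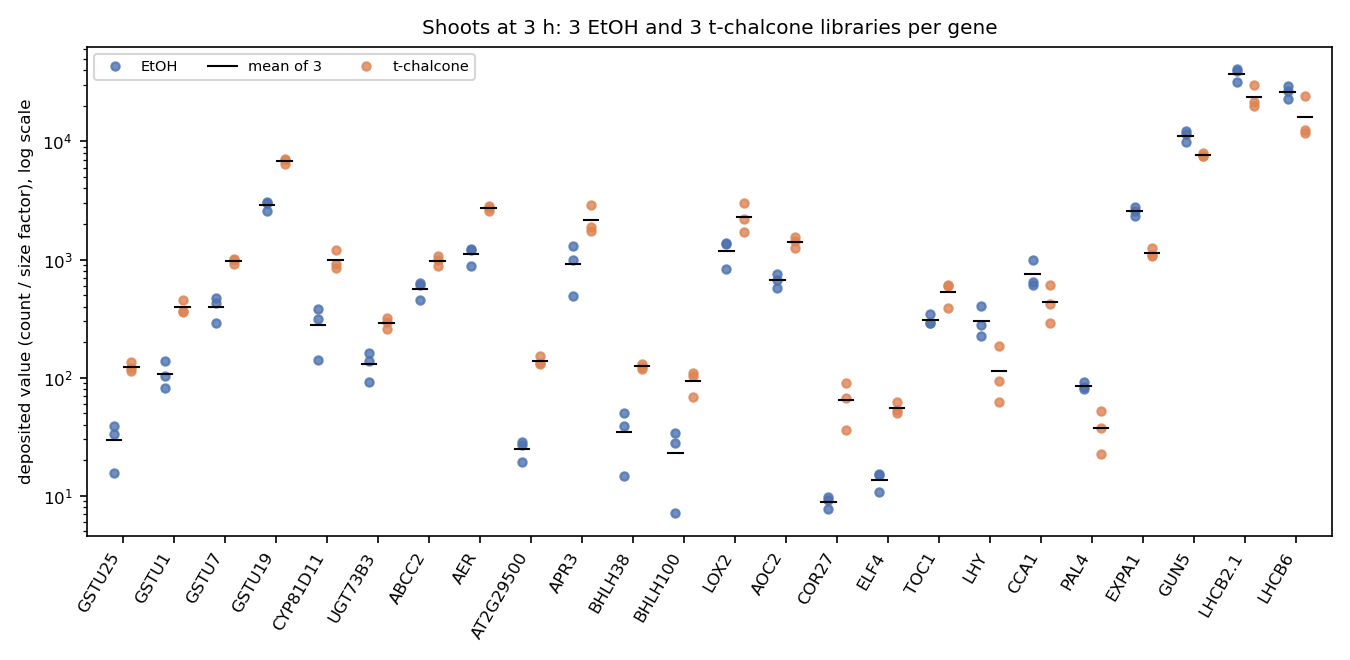
Deposited values (log axis) of 24 genes in the 3 EtOH and the 3 t-chalcone libraries of shoots at 3 h, where each point is 1 library and each bar the mean of 3. The detoxification, iron and evening clock genes stand higher with t-chalcone, and LHY, PAL4, EXPA1 and GUN5 stand lower with no overlap, while LHCB6 overlaps between the groups.

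Promoter windows of the 250 bases before each annotated gene start were read from RefSeq's TAIR10.1 assembly for 19031 of the 19116 tested genes and searched on both strands. TGACG, the core of TGA sites, was found in 27.3% of the 308 windows of higher genes, in 173 of the 993 windows of lower genes and in 19.4% of all. Of the 14 detoxification genes that rose 9 held it, and of the 8 transferases 4, beside 4 of 10 detoxification and 10 of 27 transferase genes that were not called. It was also in 5 of the 7 clock genes that rose, 1 of the 6 that fell and 6 of 17 that were not called. The windows of GSTU7 (3 matches) and UGT73B3 (2 matches) are shown because both genes rose and hold several copies close together, with the TGACG matches of either strand in capitals, written 5′ to 3′ along the gene. They lie at chr2:12618900-12619149 on the minus strand and at chr4:16344819-16345068 on the minus strand. A match is a description of the sequence and not evidence of binding.
GSTU7: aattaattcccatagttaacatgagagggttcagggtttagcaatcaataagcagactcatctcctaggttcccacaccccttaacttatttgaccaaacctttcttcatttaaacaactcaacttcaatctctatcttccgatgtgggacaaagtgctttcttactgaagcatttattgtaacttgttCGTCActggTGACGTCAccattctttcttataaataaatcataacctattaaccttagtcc
UGT73B3: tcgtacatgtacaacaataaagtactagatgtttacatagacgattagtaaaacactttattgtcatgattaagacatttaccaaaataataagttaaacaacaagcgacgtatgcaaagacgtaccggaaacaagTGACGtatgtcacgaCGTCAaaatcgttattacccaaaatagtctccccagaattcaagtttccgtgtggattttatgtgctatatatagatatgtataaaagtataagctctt

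Of 21 heat shock genes tested, 4 rose and 0 fell, and all 4 encode small heat shock proteins, chaperones that hold unfolding proteins. The list's median was 0.55, and 7 further members did not pass the filter on low values. AT2G29500, an HSP20-like chaperone gene, was at 26.7, 28.4 and 19.2 with EtOH and at 154, 129 and 134 with t-chalcone. It rose by 2.46 ± 0.33 (adjusted p = 0.000142). The other 3 called members were low in all libraries. HSP17.4 (AT3G46230) was at 2.79, 2.18 and 0.767 and at 9.07, 23.2 and 27.8 (2.79 ± 0.58, adjusted p = 0.00704), and HSP17.6A (AT5G12030) at 9.57, 7.09 and 0.383 and at 36.3, 12.6 and 29.4 (2.34 ± 0.69, adjusted p = 0.0398). In t-chalcone replicate 1 the value of HSP17.4 was only 1 step above the lowest that library could show. In EtOH replicate 3 the value of HSP17.6A was the lowest that library could show, so the size of its change is uncertain. AT1G53540 changed by 2.36 ± 0.65 (adjusted p = 0.0316). The cytosolic chaperone gene HSP70 (AT3G12580) did not pass, at 169.8, 198 and 83.2 and at 372, 246 and 221 (0.95 ± 0.44, adjusted p = 0.197). TMM gave 4 higher genes. With the 6 libraries thinned to the total of the shallowest, 1 of the 4 calls stayed, with TMM and without it. In the 6 fits without 1 library the count was 2 to 3, 2 without EtOH replicate 2 or EtOH replicate 3 or t-chalcone replicate 3, and with the 6 libraries fitted alone 2 were higher. AT2G29500 and HSP17.4 passed in each of the 6 fits with a library left out, and the others reached adjusted p-values of 0.0925 to 0.214 in at least 1 of them; AT1G53540 passed in 0 of the 6. Of 13 genes for folding in the endoplasmic reticulum 0 passed with the deposited scaling (1 at an unadjusted p under 0.05). ERDJ3B (AT3G62600, 0.28 ± 0.10) passed with TMM (adjusted p = 0.0267), edgeR and DESeq2 and in 1 of the 6 fits that left out 1 library.

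Sulfur assimilation supplies the cysteine from which glutathione is made, and 5 of its 19 tested genes rose and 0 fell (list median 0.36, 6 higher with TMM). APR3 (AT4G21990), an adenylylsulfate reductase gene, was at 1295, 982 and 493 and at 2887, 1899 and 1746. It rose by 1.31 ± 0.36 (adjusted p = 0.0301), as did SERAT2;1 (AT1G55920), a serine acetyltransferase gene of cysteine synthesis (0.87 ± 0.22), and GSH2 (AT5G27380), the glutathione synthetase gene (0.36 ± 0.11). The sulfur deficiency genes BGLU28 (AT2G44460) and SDI1 (AT5G48850) completed the 5. BGLU28 went from 6.78, 3.82 and 4.6 to 45.3, 31.8 and 22.9, a rise of 2.48 ± 0.39 (adjusted p = 0.000721), and SDI1 rose by 1.66 ± 0.44, while LSU1 (AT3G49580) overlapped between groups (1.53 ± 0.65, adjusted p = 0.153). The count with a single library left out was 1 to 5, 1 without EtOH replicate 2 or t-chalcone replicate 1 and 2 without EtOH replicate 3 or t-chalcone replicate 3, and with the 6 libraries fitted alone 2 were higher. BGLU28 passed in each of the 6 fits with a library left out, and the others reached adjusted p-values of 0.0871 to 0.163 in at least 1 of them. Among 25 redox genes 3 rose and 0 fell. GPX6 (AT4G11600), a glutathione peroxidase gene, went from 638, 635 and 546 to 1269, 1256 and 1518 (1.15 ± 0.18, adjusted p = 0.000576), and DHAR2 (AT1G75270), a dehydroascorbate reductase gene, rose by 0.94 ± 0.17 (adjusted p = 0.00308); both passed in all 6 fits that left out 1 library, and 1 redox gene was called lower without t-chalcone replicate 2. The thioredoxin gene TH8 (AT1G69880) changed by 1.98 ± 0.59 (adjusted p = 0.0414) with overlapping groups, and its highest adjusted p in those fits was 0.206. Of 33 proteasome genes the transcription factor gene NAC053 (AT3G10500), a known regulator of proteasome subunit genes, rose from 153, 154 and 130.0 to 286, 306 and 306 (1.04 ± 0.16, adjusted p = 0.000576). No subunit was called higher. Of the 33 genes, NAC053 included, 6 had a positive change, beside 6192 of all 19116 tested. The list's median was -0.12, beside -0.11 over all genes, and with TMM -0.021, beside -0.0025. The subunit gene PAC1 (AT3G22110) was called lower (-0.29 ± 0.075, adjusted p = 0.0219), though not with TMM (adjusted p = 0.113). It passed in only 3 of the 6 fits that left out 1 library. Proteasome genes called lower numbered 10 without t-chalcone replicate 2 and 0 without EtOH replicate 1, EtOH replicate 2 or t-chalcone replicate 1. Over all genes, 2648 of 19103 tested were called lower without t-chalcone replicate 2. The alternative oxidase gene AOX1A (AT3G22370) was the 1 called of 9 mitochondrial stress genes, from 267, 276 and 231 to 553, 469.7 and 455 (0.93 ± 0.28, adjusted p = 0.0446). Its highest adjusted p with 1 library left out was 0.169.

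Jasmonate is a lipid-derived hormone of wounding and defence. Of 26 genes of its synthesis and response tested, 5 rose and 0 fell, with a median of 0.62 (6 higher with TMM and 7 with edgeR). On the synthesis side, the lipoxygenase gene LOX2 (AT3G45140) was at 1377, 1363 and 832 and at 2216, 3009 and 1711 (0.96 ± 0.26, adjusted p = 0.0298). The allene oxide cyclase gene AOC2 (AT3G25770) went from 752, 676 and 574 to 1432, 1541 and 1252 (1.08 ± 0.18, adjusted p = 0.00141), and its near copy AOC1 (AT3G25760) rose by 0.77 ± 0.23. CYP94B3 (AT3G48520), which turns over the active hormone, stood at the lowest value of the library in all 3 EtOH libraries (0.399, 0.546 and 0.383) and at 9.07, 25.9 and 9.82 with t-chalcone. It passed (adjusted p = 0.0107), and since the controls cannot be told from 0 no fold is given. In t-chalcone replicate 1 its value was only 1 step above the lowest that library could show (4.53), a floor above all 3 control values. JAZ12 (AT5G20900), a repressor of the response, rose by 0.35 ± 0.073 (adjusted p = 0.00768). With each of the 6 libraries left out in turn the number was 2 to 6, 2 without t-chalcone replicate 1 and 3 without EtOH replicate 1 or EtOH replicate 2 or t-chalcone replicate 2, and with the 6 libraries fitted alone 1 was higher. AOC2 and CYP94B3 passed in each of the 6 fits with a library left out, and the others reached adjusted p-values of 0.0526 to 0.173 in at least 1 of them. Salicylic acid and immunity genes gave 0 calls of 18 with limma (2 at an unadjusted p under 0.05) and 0 with edgeR; DMR6 (AT5G24530) was at 183, 122 and 164 and 195, 201 and 296. Fast calcium and stress response genes gave 0 of 25 (1 unadjusted, 0 with edgeR), with SIB1 (AT3G56710) at 80.5, 60.6 and 51 and 118, 141 and 128 and ZAT12 (AT5G59820) at 76.9, 85.7 and 59 and 136, 247 and 96.5. Camalexin and indole glucosinolate genes gave 0 of 15 (0 unadjusted, 0 with edgeR). Without t-chalcone replicate 2, 1 of them was called lower, beside 2648 of all 19103 genes tested. CYP71A12 (AT2G30750) was at 36.7, 30.6 and 39.1 and 77.1, 78.9 and 54 and MYB34 (AT5G60890) at 217, 192 and 164 and 154, 141 and 164. Of 17 abscisic acid genes RD22 (AT5G25610) was called lower (-0.60 ± 0.17, adjusted p = 0.0347) with overlapping groups. The call was lost with TMM (adjusted p = 0.0876) and in 4 of the 6 fits that left out 1 library (highest adjusted p = 0.2, without EtOH replicate 2). The list's median was 0.22, and 14 of the 17 had a positive change, beside 6192 of all 19116 genes tested. With TMM 1 was called higher and 0 lower, with edgeR and with DESeq2 2 and 0.

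A set of iron deficiency genes was higher with t-chalcone. Of 23 iron and copper genes 8 rose, all of them on the iron side, and 1 fell, while the list's median was -0.048. All 4 group Ib bHLH transcription factors that switch on iron uptake were among them. BHLH38 (AT3G56970) was at 50.2, 14.7 and 39.1 with EtOH and at 131, 123 and 119 with t-chalcone (1.98 ± 0.44, adjusted p = 0.00955). BHLH39 (AT3G56980) went from 39.9, 10.9 and 40.6 to 145, 130.0 and 96.5 (2.17 ± 0.42, adjusted p = 0.00442). In each of them EtOH replicate 2 was the lowest library. BHLH100 (AT2G41240) was at 34.3, 7.09 and 28 and at 109, 103 and 68.7 (2.19 ± 0.48, adjusted p = 0.0091), and BHLH101 (AT5G04150) at 69.8, 39.3 and 62.5 and at 113, 167 and 96.5 (1.12 ± 0.34, adjusted p = 0.0435). The neighbouring genes AT1G47395 and AT1G47400, for which the annotation used here gives no product name, changed by 1.31 ± 0.29 and 1.47 ± 0.29. AT1G47400 was at 118, 55.1 and 86.6 and at 245, 257 and 193, again with EtOH replicate 2 the lowest. BTS (AT3G18290), a ubiquitin ligase that restrains the response, rose by 0.60 ± 0.15, and ZIF1 (AT5G13740), a vacuolar transporter of the metal chelator nicotianamine, by 0.60 ± 0.18. The copper chaperone gene CCH (AT3G56240) was called lower (-0.50 ± 0.15, adjusted p = 0.0446), though not with TMM (adjusted p = 0.0908). Leaving out 1 of the 6 libraries at a time gave 2 to 7, 2 without EtOH replicate 2. It gave 5 without EtOH replicate 3 or t-chalcone replicate 1 or t-chalcone replicate 2. Without t-chalcone replicate 2, 2 were also called lower, beside 2648 of all 19103 genes tested. With the 6 libraries fitted alone 0 were higher. AT1G47400 and BHLH39 passed in each of the 6 fits with a library left out, and the others reached adjusted p-values of 0.0802 to 0.216 in at least 1 of them; BHLH101 passed in 0 of the 6. With TMM 8 rose and 0 fell. CCH passed in only 1 of the 6 fits with a library left out.

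The clock genes that changed split by their time of day, with evening genes higher and morning genes lower in the t-chalcone shoots. Of 30 tested, 7 rose and 6 fell, and with TMM 9 rose and 2 fell. LHY (AT1G01060), a morning MYB factor, was at 404, 223 and 278 with EtOH and at 186, 62.4 and 93.2 with t-chalcone. It changed by -1.50 ± 0.33 (adjusted p = 0.00988), and its partner CCA1 (AT2G46830) went from 991, 641 and 613 to 612, 291 and 420.4 (-0.79 ± 0.22, adjusted p = 0.0341), with replicate 1 the highest library of each group in both genes. The CCA1 groups nearly met, since the lowest EtOH library was just above the highest t-chalcone library. RVE8 (AT3G09600, -1.01 ± 0.28), the coactivator genes LNK2 (AT3G54500, -0.69 ± 0.14) and LNK4 (AT5G06980, -0.60 ± 0.17) and the DOF factor gene CDF3 (AT3G47500, -0.58 ± 0.14) were the other lower members. With TMM only LHY and LNK2 of these 6 passed. On the evening side, ELF4 (AT2G40080), a subunit of the evening complex, was at 15.1, 15.3 and 10.7 and at 49.9, 53.7 and 62.2 (1.94 ± 0.32, adjusted p = 0.000996). LUX (AT3G46640), another subunit, went from 153, 184 and 177 to 290.1, 353 and 384 (0.99 ± 0.23, adjusted p = 0.0136), and its relative BOA (AT5G59570) from 5.18, 3.27 and 6.52 to 22.7, 27.9 and 19.6 (2.05 ± 0.28, adjusted p = 0.000152). These groups did not overlap. TOC1 (AT5G61380), a pseudo-response regulator that represses the morning genes, was at 293, 292 and 348 and at 385, 602 and 612 (0.75 ± 0.17, adjusted p = 0.0126), and PRR3 (AT5G60100), of the same family, at 30.3, 41.5 and 57.9 and at 113, 173 and 155 (1.77 ± 0.23, adjusted p = 5.86e-05). FKF1 (AT1G68050), a blue-light F-box protein gene, was at 37.1, 36 and 36 and at 63.5, 179 and 218 (1.87 ± 0.37, adjusted p = 0.00557). The RNA-binding protein gene GRP7 (AT2G21660) was called higher (0.72 ± 0.19, adjusted p = 0.0269) although its t-chalcone replicate 1 (3467) lay among the controls. In the cold list, COR27 (AT5G42900), a cold and evening regulated gene, rose from 9.17, 9.82 and 7.67 to 36.3, 67.7 and 90 (2.64 ± 0.28, adjusted p = 3.16e-06). AT4G33980, which has no symbol in the annotation used here, rose from 17.1, 20.7 and 27.2 to 45.3, 131 and 170.1 (2.18 ± 0.47, adjusted p = 0.00828). None of the other 9 cold genes tested passed. For the higher genes, with 1 library left out in turn the count was 4 to 8, 4 without EtOH replicate 1 or t-chalcone replicate 3, and with the 6 libraries fitted alone 3 were higher. FKF1, ELF4, BOA and PRR3 passed in each of the 6 fits with a library left out, and the others reached adjusted p-values of 0.0636 to 0.104 in at least 1 of them. For the lower genes, in the 6 fits without 1 library the count was 1 to 6, 1 without EtOH replicate 1 and 2 without EtOH replicate 2 or t-chalcone replicate 3, and with the 6 libraries fitted alone 0 were lower. LNK2 passed in each of the 6 fits with a library left out, and the others reached adjusted p-values of 0.0628 to 0.197 in at least 1 of them. AT4G33980 reached an adjusted p of 0.055 without t-chalcone replicate 3.

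The levels of these genes in control shoots of other times stand beside that result. TOC1 was at 315, 414 and 355 at 0 h, at 1548, 1542 and 1921 at 1 h, at 293, 292 and 348 at 3 h and at 1346, 1438 and 1620.3 at 6 h with EtOH alone. CCA1 ran the other way, at 456, 443 and 394, 70.5, 76 and 59.1, 991, 641 and 613 and 61.2, 94.6 and 47.1 at these times. The EtOH shoots labelled 3 h were thus close to those of 0 h and far from those of 1 h and 6 h in TOC1, and nearer to 0 h than to 1 h and 6 h in CCA1, which is not the order of the labelled times, and the t-chalcone shoots at 3 h lay between the EtOH shoots of 3 h and those of 1 h and 6 h for TOC1 and CCA1. The same comparison over all called genes used EtOH libraries of other times. These enter neither group mean at 3 h, but they share the fit and its estimate of spread with the 3 h test. Of the 311 genes higher at 3 h, 165 (53.1%) were higher and 21 (6.75%) lower in EtOH shoots at 6 h than at 0 h, beside 18.3% and 19.8% of all tested genes. Between 1 h and 0 h the shares were 45.3% and 14.1%, beside 21.9% and 26.9%. Of the 996 lower genes, 212 were higher and 264 lower at 6 h than at 0 h, and 15.7% and 40.5% at 1 h. Other pairs of control times gave other balances. Of the lower genes, 50.1% were higher and 7.93% lower at 12 h than at 0 h, and 46.4% and 11.4% at 24 h, beside 24.1% and 20%, and 22% and 27.6%, of all tested genes. For the higher genes the shares were 32.2% and 30.2% at 12 h, and 32.5% and 34.1% at 24 h. From 1 h to 6 h, 40.2% of the higher genes were higher and 20.6% lower, and of the lower genes 39% and 16.6%, beside 28.9% and 24.2% of all. The labels give no clock time for the harvest of a library, so an effect of t-chalcone on clock genes and a difference in the hour of sampling between the groups cannot be told apart.

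**Figure D3:**
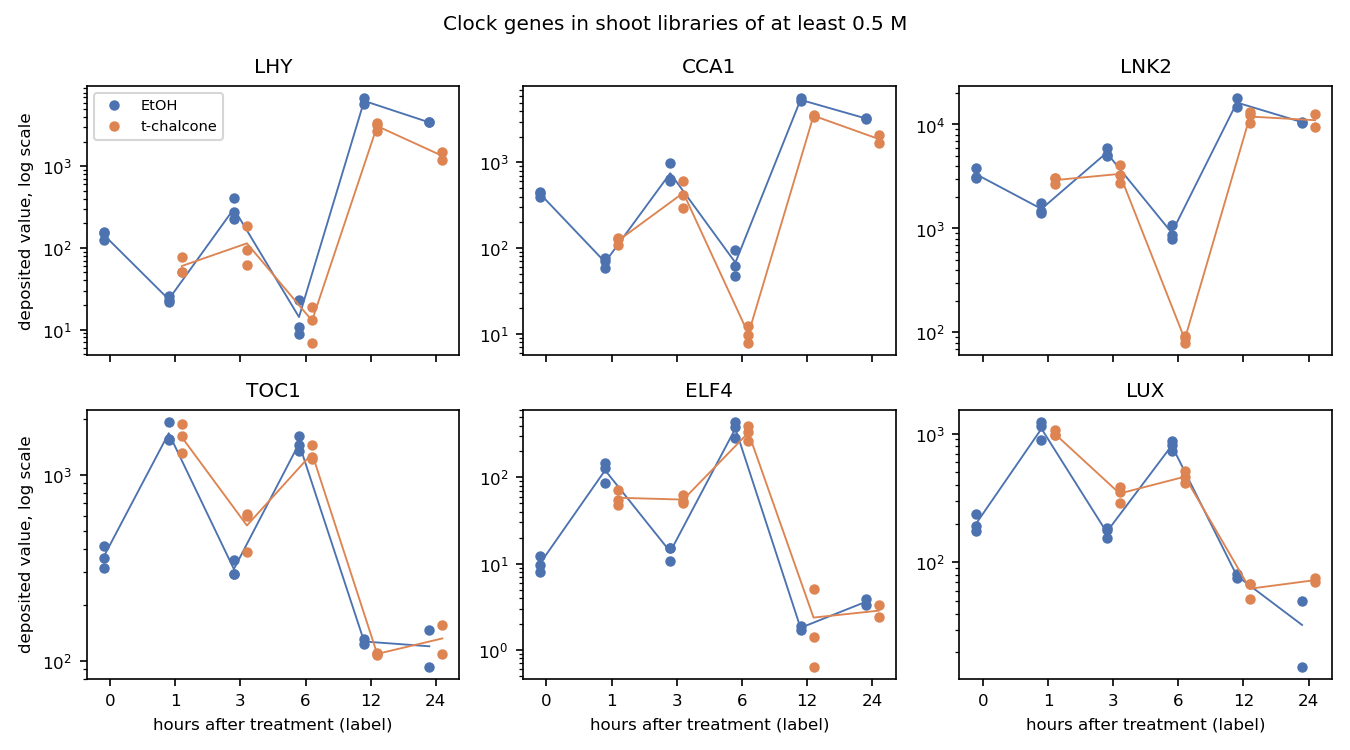
Deposited values (log axis) of the morning genes LHY, CCA1 and LNK2 and the evening genes TOC1, ELF4 and LUX in shoot libraries with a depth of at least 0.5 (in units of 1000000) against the labelled hours after treatment; each point is 1 library and lines join the means of a treatment. At 3 h the t-chalcone libraries (orange) are lower than EtOH (blue) for the morning genes and higher for the evening genes, and the EtOH levels at 1 h and 6 h lie far from those at 0 h and 3 h.

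The evening element AAAATATCT was present on either strand in 29 of 308 promoter windows of higher genes (9.42%), in 19 of 993 windows of lower genes (1.91%) and in 2.55% of all 19031 windows. Among the clock genes 5 of the 7 that rose held it, 0 of the 6 that fell and 3 of 17 that were not called. For comparison, the G-box CACGTG was found in 13.3%, 6.24% and 7.39% of the same windows, the ethylene-response GCC-box GCCGCC in 3.25%, 0.806% and 1.97%, the W-box TTGACC in 14.9%, 10.8% and 12.1%, the heat shock element GAANNTTC in 7.79%, 7.25% and 9.37%, and the related clock motif AAAAATCT in 6.82%, 6.55% and 6.74%. The windows of 3 risen genes are shown to let the copies be compared, with matches on either strand in capitals and written 5′ to 3′ along the gene: GRP7 has 3 copies, and BOA and TOC1 have 1 each. They lie in TAIR10.1 at chr2:9266558-9266807 on the minus strand, chr5:24003638-24003887 on the plus strand and chr5:24674713-24674962 on the plus strand. In GRP7 the copies begin 76, 55 and 31 bases before the annotated start, while the copy of BOA begins at 43 and that of TOC1 at 151.
GRP7: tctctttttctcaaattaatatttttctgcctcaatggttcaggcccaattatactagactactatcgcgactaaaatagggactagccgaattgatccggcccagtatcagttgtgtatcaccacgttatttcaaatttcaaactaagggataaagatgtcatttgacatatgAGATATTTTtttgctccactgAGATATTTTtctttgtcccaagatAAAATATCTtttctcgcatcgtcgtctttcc
BOA: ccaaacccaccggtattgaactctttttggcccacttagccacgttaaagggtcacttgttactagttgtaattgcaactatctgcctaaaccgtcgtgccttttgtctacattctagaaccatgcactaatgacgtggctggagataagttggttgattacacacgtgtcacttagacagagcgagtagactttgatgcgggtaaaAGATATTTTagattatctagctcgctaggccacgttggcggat
TOC1: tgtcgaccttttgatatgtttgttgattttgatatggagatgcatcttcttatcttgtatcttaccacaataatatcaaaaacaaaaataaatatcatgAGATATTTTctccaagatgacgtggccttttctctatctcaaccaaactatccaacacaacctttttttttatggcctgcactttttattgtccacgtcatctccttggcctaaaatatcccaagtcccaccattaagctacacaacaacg

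Nuclear genes of photosynthesis were lower in the t-chalcone shoots, by modest amounts. Of 43 tested, 21 fell and 0 rose, and the median was -0.50. All 43 had a negative change, beside 12924 of all 19116 genes tested. With TMM 9 fell (median -0.40) and with edgeR 8. The summed value of the list was 1259220, 1249330 and 1067980 in the EtOH libraries and 727610, 1033350 and 801579 in the t-chalcone libraries, so t-chalcone replicate 2, the deepest of its group, lay nearest to the controls. The order of the t-chalcone sums was the order of their depths. With the 6 libraries thinned to the total of the shallowest the median was -0.49 and 20 of the 21 calls stayed, and with thinning and TMM together it was -0.37 and 10 stayed. Among the light-harvesting genes, LHCB2.3 (AT3G27690) was at 10198, 9431 and 6703 and at 4419, 4765 and 4584 (-0.91 ± 0.18, adjusted p = 0.0043). LHCB2.2 (AT2G05070) changed by -0.84 ± 0.15 (adjusted p = 0.00291) and LHCB2.1 (AT2G05100), at 40859.5, 39368 and 31678 and at 21466, 29917 and 19928, by -0.66 ± 0.15 (adjusted p = 0.0114). CAB2 (-0.72 ± 0.18), CAB3 (-0.62 ± 0.15), LHCB4.1 (-0.61 ± 0.16), LHCB4.2 (-0.72 ± 0.17), LHCB6 (-0.77 ± 0.18) and LHCA2 (-0.52 ± 0.16) of the antenna were also called lower. Of the 21, 7 overlapped between groups (LHCB6, LHCB4.1, LHCA2, PSAL, PSAO, PSBO1 and PSBO2). LHCB6 (AT1G15820) did so, at 26752, 29177 and 22719.8 and at 11717, 24361 and 12605. For carbon fixation, the Rubisco small subunit genes RBCS2B (-0.82 ± 0.20) and RBCS1B (-0.70 ± 0.21) and the Rubisco activase gene RCA (-0.68 ± 0.19) were called, and for electron transport the ferredoxin gene FD2 (AT1G60950), from 7062, 7293 and 5341 to 3631, 4469 and 4376 (-0.65 ± 0.14, adjusted p = 0.00704). The plastocyanin gene PETE2 and the photosystem genes PSAF, PSAH1, PSAK, PSAL, PSAO, PSBO1 and PSBO2 were called with changes of -0.58 to -0.39. The count with a single library left out was 2 to 31. It was 2 without EtOH replicate 2 or t-chalcone replicate 1 and 3 without EtOH replicate 1 or t-chalcone replicate 3. The 31 came from the fit without t-chalcone replicate 2, in which 2648 of all 19103 genes tested were called lower. With the 6 libraries fitted alone 0 were lower. LHCB2.2 and LHCB2.3 passed in each of the 6 fits with a library left out, and the others reached adjusted p-values of 0.0567 to 0.276 in at least 1 of them.

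Chlorophyll synthesis genes moved the same way, with 6 of 15 lower and 0 higher (median -0.27), and 2 lower with TMM. GUN5 (AT5G13630), the H subunit of the chelatase that inserts magnesium, was at 12262, 11549 and 9816 and at 7977, 7541 and 7520.5. It fell by 0.54 ± 0.10 (adjusted p = 0.00305), and its activator gene GUN4 (AT3G59400) from 1608, 1589.7 and 1207 to 848, 981 and 879 (-0.69 ± 0.15, adjusted p = 0.00955). HEMA1 (AT1G58290, -0.45 ± 0.13), which starts the pathway, CHLD (AT1G08520, -0.26 ± 0.075), CHLM (AT4G25080, -0.43 ± 0.11) and CAO (AT1G44446, -0.47 ± 0.12), which makes chlorophyll b, were called with the deposited scaling and not with TMM (adjusted p-values of 0.0546 to 0.232). With each of the 6 libraries left out in turn the number was 1 to 5, 1 without EtOH replicate 1 or EtOH replicate 2 and 2 without t-chalcone replicate 1 or t-chalcone replicate 3, and with the 6 libraries fitted alone 0 were lower. GUN5 passed in each of the 6 fits with a library left out, and the others reached adjusted p-values of 0.0655 to 0.175 in at least 1 of them. Of 23 light signalling genes 5 fell and 0 rose, the same counts as with TMM. GLK2 (AT5G44190), a transcription factor that promotes photosynthesis genes, was at 2104, 1805 and 1606 and at 1079, 1272 and 978 (-0.73 ± 0.14, adjusted p = 0.00442). The growth-restraining PAR1 (AT2G42870, -0.95 ± 0.21) and PAR2 (AT3G58850, -0.80 ± 0.16), the CONSTANS-like COL2 (AT3G02380, -1.01 ± 0.22) and RUP2 (AT5G23730, -1.61 ± 0.35), which damps the UV-B response, fell too. Leaving out 1 of the 6 libraries at a time gave 3 to 11, 3 without EtOH replicate 1 or t-chalcone replicate 1 and 11 without t-chalcone replicate 2, and with the 6 libraries fitted alone 1 was lower. Over all genes, 2648 of 19103 tested were called lower without t-chalcone replicate 2. PAR2 and GLK2 passed in each of the 6 fits with a library left out, and the others reached adjusted p-values of 0.0619 to 0.0696 in at least 1 of them.

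t-Chalcone shares its skeleton with products of the flavonoid pathway, so the genes of that pathway and of the phenylpropanoid route that feeds it were read separately. Of 18 phenylpropanoid genes 8 fell and 1 rose (median -0.42), and with TMM 5 fell and 1 rose. At the entry, PAL4 (AT3G10340), a phenylalanine ammonia-lyase gene, was at 80.5, 84 and 91.2 and at 22.7, 52.4 and 37.6 (-1.24 ± 0.27, adjusted p = 0.00996), and PAL3 (AT5G04230) went from 290.2, 270.1 and 273 to 181, 203 and 164 (-0.61 ± 0.11, adjusted p = 0.00375). Neither overlapped between groups. Among the lignin branch, the alcohol dehydrogenase gene CAD4 (AT3G19450) was at 637, 626 and 605 and at 412, 343 and 359.9 (-0.75 ± 0.14, adjusted p = 0.00291). 4CL1 (-0.60 ± 0.14), 4CL2 (-0.70 ± 0.22), CCR1 (-0.66 ± 0.16), HCT (-0.48 ± 0.14) and OMT1 (-0.45 ± 0.14) were called as well, of which 4CL2 and CCR1 overlapped between groups. The member that rose was MYB4 (AT4G38620), a known repressor of this route, from 131, 124 and 133 to 276, 226 and 221 (0.88 ± 0.18, adjusted p = 0.00557); it passed in every fit that left out 1 library. With 1 library left out in turn the count of lower genes was 2 to 12. It was 2 without t-chalcone replicate 1, 3 without EtOH replicate 2 and 4 without EtOH replicate 1 or t-chalcone replicate 3. The 12 came from the fit without t-chalcone replicate 2, in which 2648 of all 19103 genes tested were called lower. With the 6 libraries fitted alone 1 was lower. CAD4 and PAL3 passed in each of the 6 fits with a library left out, and the others reached adjusted p-values of 0.0839 to 0.358 in at least 1 of them. In the flavonoid list 2 of 17 were called lower and 0 higher, the glycosyltransferase genes UGT78D1 (AT1G30530, -0.58 ± 0.14) and UGT78D2 (AT5G17050, -0.95 ± 0.24), of which TMM kept UGT78D2 and edgeR neither. TT4 (AT5G13930), the chalcone synthase gene that opens the pathway, was at 66.2, 69.9 and 55.2 and at 36.3, 49.8 and 50.7. It did not pass (-0.48 ± 0.58, adjusted p = 0.663), and neither did the flavonol synthase gene FLS1 (AT5G08640), at 45.4, 41.5 and 30.3 and 27.2, 30.5 and 21.3 (-0.55 ± 0.50, adjusted p = 0.55). In the 6 fits without 1 library the count was 0 to 5, 0 without EtOH replicate 1 or EtOH replicate 2 or t-chalcone replicate 1, 1 without t-chalcone replicate 3 and 5 without t-chalcone replicate 2, and with the 6 libraries fitted alone 0 were lower. UGT78D1 and UGT78D2 each reached an adjusted p of 0.0844 to 0.104 in at least 1 of these fits. Over all genes, 2648 of 19103 tested were called lower without t-chalcone replicate 2.

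Expansins loosen the wall of growing cells, and 7 of 24 wall loosening genes fell while 0 rose (median -0.36; 5 lower with TMM). EXPA1 (AT1G69530) was at 2808, 2561 and 2322 and at 1069.7, 1263 and 1088. It fell by 1.17 ± 0.19 (adjusted p = 0.000964), with the groups far apart. EXPA3 (-0.95 ± 0.19), EXPA4 (-0.66 ± 0.20), EXPA5 (-0.70 ± 0.15), EXPA8 (-1.10 ± 0.26), EXPA11 (-1.08 ± 0.25) and the xyloglucan enzyme gene XTH8 (-0.60 ± 0.17) were the others, and EXPA4 overlapped between groups. The count with a single library left out was 3 to 7, 3 without EtOH replicate 2 or t-chalcone replicate 1 and 4 without EtOH replicate 1 or t-chalcone replicate 3, and with the 6 libraries fitted alone 3 were lower. EXPA1, EXPA3 and EXPA5 passed in each of the 6 fits with a library left out, and the others reached adjusted p-values of 0.0849 to 0.22 in at least 1 of them. Of 21 auxin response genes 0 passed with limma (5 at an unadjusted p under 0.05, all lower) and 0 with edgeR, but 4 were called lower without t-chalcone replicate 2, among them IAA19 (adjusted p = 0.0221) and GH3.6 (adjusted p = 0.00836). With EtOH and t-chalcone in turn, IAA19 (AT3G15540) was at 109.6, 115 and 97.8 and 36.3, 86.9 and 68.7 and GH3.6 (AT5G54510) at 745, 755 and 693 and 499, 656 and 394. Of 9 cytokinin response genes 0 passed (3 unadjusted, 0 with edgeR), with ARR8 (AT2G41310) at 143, 166 and 178 and 86.1, 117 and 134 and ARR4 (AT1G10470) at 438, 427 and 508 and 358, 359 and 419. Calls in the remaining lists were few. DIN11 (AT3G49620), an oxygenase gene and the only call among 20 low sugar genes, rose from 104, 119 and 199 to 372, 460.4 and 456 (1.66 ± 0.31, adjusted p = 0.00309), and the fermentation gene PDC2 (AT5G54960), the only call among 12 low oxygen genes, from 378, 399 and 427 to 657, 829 and 793 (0.91 ± 0.17, adjusted p = 0.00305); both held in every fit that left out 1 library, and 3 low oxygen genes were called lower without t-chalcone replicate 2. DIN2 (AT3G60140), at 33.1, 27.8 and 52.9 and 159, 100.2 and 118, did not pass (1.73 ± 0.54, adjusted p = 0.0539). The nitrate transporter gene NRT1.7 (0.61 ± 0.15) was called higher. The glucosinolate regulator MYB28 (-0.48 ± 0.10), the replication gene MCM6 (-0.56 ± 0.16) and the root marker PRP3 (-1.96 ± 0.55) were called lower, each the only call among 16 nitrate, 19 aliphatic glucosinolate, 24 cell cycle and 11 root marker genes; the 3 lower ones did not pass with TMM, and the highest adjusted p of these 4 with 1 library left out was 0.0587 to 0.206. Without t-chalcone replicate 2, 4 nitrate, 2 aliphatic glucosinolate and 2 cell cycle genes were called lower. In that fit 2648 of all 19103 genes tested were called lower, which is also the background for the auxin and low oxygen counts.

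**Figure D4:**
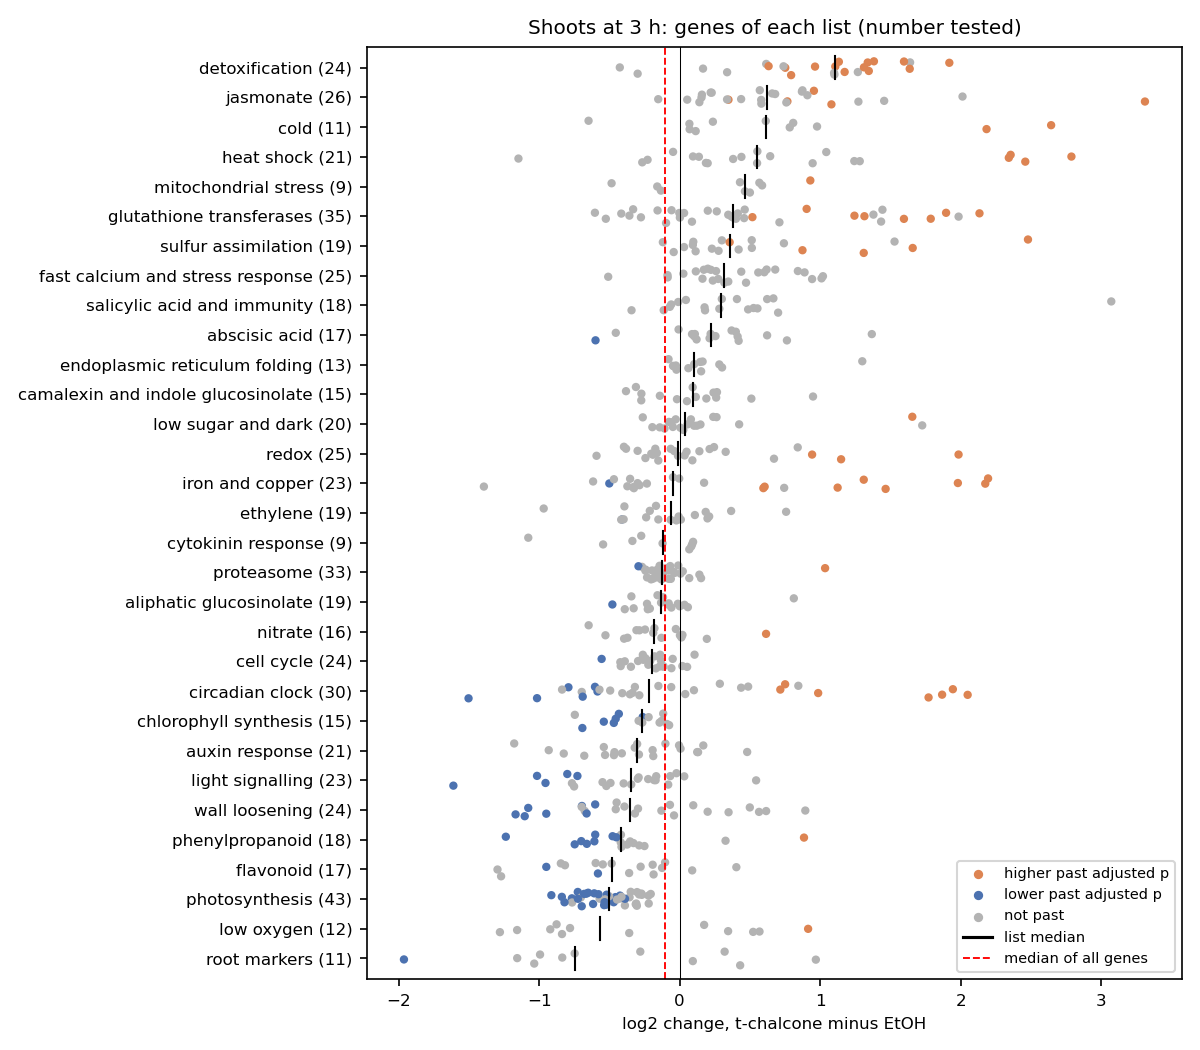
Change of each tested gene (t-chalcone minus EtOH, log2 scale, horizontal axis) in the 31 gene lists, ordered by list median (black bars), with the number of genes tested in parentheses; the dashed line is the median of all genes. Detoxification (median 1.104) and jasmonate (0.62) stand at the top, and photosynthesis genes (median -0.50) lie to the left of 0 without exception. Members and lists were chosen with earlier results of these data known.

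The other times of the shoot series show how far the 3 h pattern is shared. At 1 h 92 genes passed (0.481% of 19116, 54 higher and 38 lower, or 0.282% and 0.199%), and at 6 h 4430 passed (23.2%, 2952 higher and 1478 lower, or 15.4% and 7.73%). Tests of the difference itself were made in the same fit. The effect at 3 h minus that at 1 h passed for 402 genes (2.1%), 105 positive and 297 negative (0.549% and 1.55%). The effect at 6 h minus that at 3 h passed for 3716 (19.4%), 2946 positive and 770 negative (15.4% and 4.03%). The balance of signs depended on the scaling: for 3 h minus 1 h TMM called 311, 182 positive and 129 negative, and edgeR 424, 299 and 125, and for 6 h minus 3 h TMM called 3389, 1793 positive and 1596 negative, and edgeR 3593, 1818 and 1775. Of the 311 genes higher at 3 h, 19 were also higher at 1 h and 114 at 6 h, which is 36.7% of them and 3.86% of those higher at 6 h, while 29 were lower at 6 h. The 19 were 6.11% of the 311 and 35.2% of those higher at 1 h. Of the 996 lower genes, 110 were lower at 6 h, 11% of them and 7.44% of those lower at 6 h, and 340 were higher. At 12 h, with 1 shallow EtOH library left out, 830 genes passed (4.34%; 377 higher, 1.97%, and 453 lower, 2.37%), and at 24 h, with 1 of each treatment left out, 2438 (12.8%; 1162 higher, 6.08%, and 1276 lower, 6.68%). Of the 311, 59 were higher and 3 lower at 12 h, 19% of them and 15.6% of those higher at 12 h in the first case, and 49 were higher and 32 lower at 24 h (15.8% and 4.22%). Of the 996, 51 were lower and 7 higher at 12 h (5.12% and 11.3%), and 129 lower and 15 higher at 24 h (13% and 10.11%). Detoxification genes were not alike in time. GSTU25 had an effect of 3.46 ± 0.41 at 1 h, 2.13 ± 0.41 at 3 h and 0.15 ± 0.41 at 6 h, and the difference between 3 h and 6 h passed (adjusted p = 0.0165). GSTU19 had its largest effect of these times at 3 h (0.47 ± 0.14, 1.24 ± 0.14 and 0.63 ± 0.14), and both differences passed (adjusted p = 0.0356 and 0.0274). GSTU7 had an effect of 1.39 ± 0.24 at 1 h, 1.31 ± 0.24 at 3 h and 0.89 ± 0.24 at 6 h, and CYP81D11 of 2.42 ± 0.38, 1.92 ± 0.38 and 0.80 ± 0.38; no difference between neighbouring times passed for either gene, which does not show that they are equal. For AOC2 and LOX2 of the jasmonate list the effect differed between 1 h and 3 h. AOC2 had an effect of -0.43 ± 0.18 at 1 h and of 1.08 ± 0.18 at 3 h, a difference of 1.51 ± 0.26 (adjusted p = 0.00384), and LOX2 of -0.68 ± 0.26 and 0.96 ± 0.26, a difference of 1.64 ± 0.37 (adjusted p = 0.0218). BHLH38 of the iron list had effects of 1.98 ± 0.44 and 1.98 ± 0.44 at 3 h and 6 h and a difference of -0.0047 ± 0.62 that did not pass. LHCB2.1 fell much further at 6 h. It had an effect of 0.55 ± 0.15 at 1 h, -0.66 ± 0.15 at 3 h and -5.14 ± 0.15 at 6 h, and its differences between 3 h and either time passed (adjusted p = 0.00387 and 2.13e-13). TT4, not called at 3 h, rose at 6 h (2.06 ± 0.58), and the difference between these times passed (adjusted p = 0.0282). COR27 had effects of -0.29 ± 0.28, 2.64 ± 0.28 and -0.26 ± 0.28 at the 3 times and ELF4 of -1.03 ± 0.32, 1.94 ± 0.32 and -0.16 ± 0.32, and in each gene 3 h differed from both neighbours by the test.

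Roots sampled at 3 h offer a comparison whose group means share no library with the shoots. The root test came from the fit of both tissues, so its estimate of spread includes shoot libraries. EtOH replicate 1 of the roots, with a depth of 0.128 in the same unit, was below the depth minimum and left out, so 2 EtOH libraries stood against 3. In roots 1294 of 20461 genes passed (6.32%), 912 higher (4.46%) and 382 lower (1.87%). Of the 311 genes higher in shoots, 147 were higher in roots too, which is 47.3% of them and 16.3% of the 902 root genes that were also tested in shoots, and 0 were lower in roots. Of the 996 lower genes, 41 were lower in roots and 9 higher, 4.12% of the shoot genes in the first case and 13.5% of the 303 root genes. The effect itself differed between the tissues for 781 genes (3.82%), with 197 positive (0.963%) and 584 with a negative difference of shoots minus roots (2.85%). This balance also turned with the scaling: TMM called 477, 295 positive and 182 negative, and edgeR 447, 313 and 134. No difference between tissues passed for these transferase genes, which does not show equal effects: GSTU25 had 2.13 ± 0.41 in shoots and 1.72 ± 0.35 in roots and GSTU19 had 1.24 ± 0.14 and 1.55 ± 0.17. Other genes of this kind changed more in roots: AER by 2.34 ± 0.21 and CYP72A8 by 2.93 ± 0.33, with differences (shoots minus roots) of -1.03 ± 0.29 (adjusted p = 0.0335) and -1.58 ± 0.45 (adjusted p = 0.0352). The small heat shock gene AT1G53540 changed by 5.55 ± 0.59 in roots, a difference of -3.19 ± 0.79 (adjusted p = 0.0172). On the shoot side stood BHLH100, with 2.19 ± 0.48 in shoots and -1.21 ± 0.59 in roots (difference 3.40 ± 0.79, adjusted p = 0.0106), AOC1 (difference 1.93 ± 0.55, adjusted p = 0.0362), the defensin-like AT3G59930 (3.78 ± 0.68, adjusted p = 0.00101) and FAMT (4.15 ± 1.098, adjusted p = 0.025). Among the clock genes, ELF4 rose in roots (1.76 ± 0.34) as did TOC1 (0.94 ± 0.17) and COR27 (2.63 ± 0.33), while LHY fell (-1.21 ± 0.38). PRR3 differed between the tissues (1.71 ± 0.35, adjusted p = 0.00366).

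**Figure D5:**
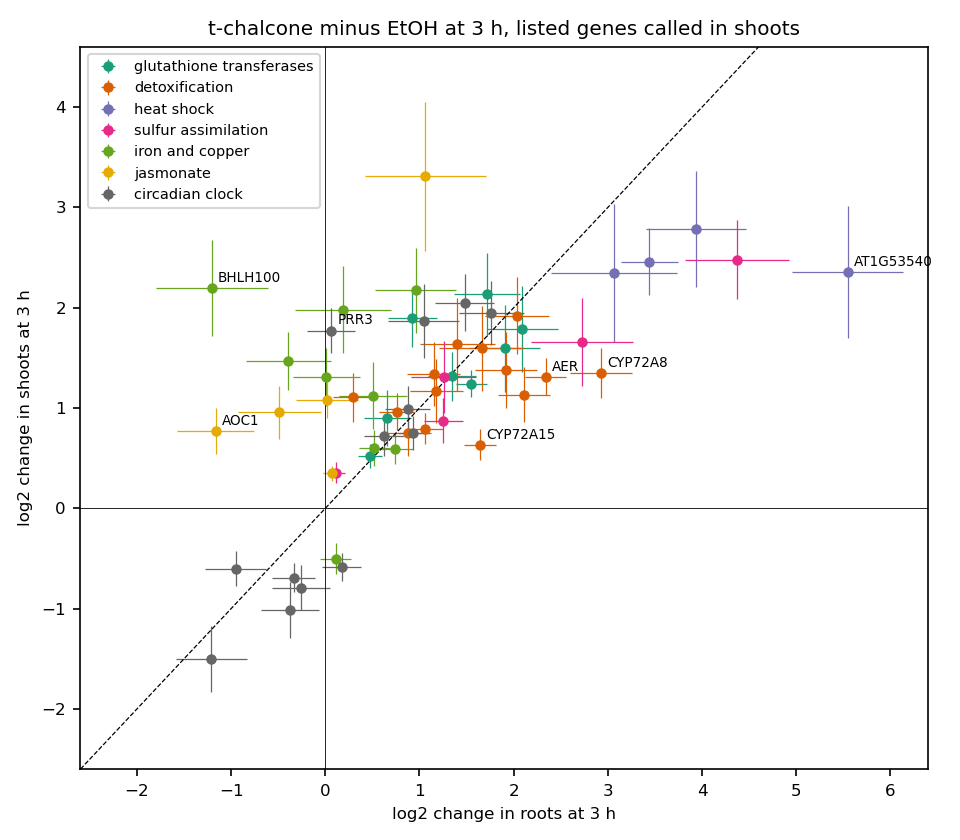
Change in shoots at 3 h (vertical axis) against change in roots at 3 h (horizontal axis), both t-chalcone minus EtOH on the log2 scale with standard errors as bars, for genes of 7 lists that were called in shoots; the dashed line marks equal changes. Named points passed the test of the difference between tissues: BHLH100, AOC1 and PRR3 lie above the line, and AT1G53540, CYP72A8, CYP72A15 and AER below it.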

How the data were processed

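Total RNA libraries of Arabidopsis thaliana seedlings were made with an Illumina TruSeq kit, per the labels' protocols. The deposited values are a normalized signal, gene counts divided by a size factor per library: the submitters' processing notes name DESeq2 1.14.1 and the TAIR10 build, and every value was a whole multiple of its library's lowest value within 0.01. No value is 0, and whether rows were dropped or 1 was added before scaling is not stated. The sources used here name no aligner, counter, strand or solvent for t-chalcone. Of 72 columns 6 repeat others exactly, which leaves 66 libraries.

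Groups were taken from the labels. The test was limma 3.58.1 (R 4.3.3) with a mean-variance trend on log2(value + 1) over 30 shoot libraries with a depth of at least 0.5 (in units of 1000000) in 11 groups, leaving out 3 shallow ones, on genes that reached 10 in 3 or more libraries, two-sided, with Benjamini-Hochberg adjustment at 0.05. Roots and shoots were compared in a fit of 61 libraries. edgeR 4.0.16 and DESeq2 1.42.0 on the recovered whole numbers, TMM, other filters and pseudocounts and left-out libraries were alternatives. The limma and edgeR fits were also run on simulated counts with known changes, drawn with the same dispersion for every gene. That setting held no library that stands apart, so it does not check the calls made here.

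The text names the 15 largest increases and 15 largest decreases among called genes whose higher group averaged 50 or more and whose groups did not overlap. It names the called members of 31 gene lists, except 1 that is not reported here, or up to 2 uncalled members of a list without calls, and 12 genes whatever their values. Members and lists were chosen with earlier results of these data known. The comparison of control times and the promoter search were added after the calls were seen. Symbols, products and promoter windows come from RefSeq's TAIR10.1, which held 22708 of the 22884 gene IDs, 9619 with a symbol.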

Additional observations from a re-analysis of the deposited data

Results flagged for a closer look

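Gathered here, with the difference on the log2 scale, are genes whose t-chalcone effect in shoots at 3 h differed from another time or tissue. The test was limma's on the difference itself, with an adjusted p under 0.05. Only the largest increases and decreases and the genes named whatever their values were considered, so the lists are not complete. AOC2, LOX2, GSTU19, AER, CYP72A8, AT1G53540, AOC1 and PRR3, described above, also passed such a test and are not listed below. Groups of 3 libraries were not tested for a library that stands apart.

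Between 3 h and 1 h 402 genes differed in all. The effect at 3 h minus that at 1 h was positive for FAMT (3.97), PDF1.2b (3.22), AT3G59930 (3.15), ELF4 (2.97), COR27 (2.94) and AT3G25572 (2.35). It was negative for LHY (-2.80), AT1G15830 (-2.10), AT1G64500 (-1.94), AT5G22390 (-1.87), AT5G28920 (-1.67), PAL4 (-1.64), AT5G48490 (-1.64), AT5G24580 (-1.63), CCA1 (-1.62), NIP6;1 (-1.50) and LHCB2.1 (-1.22).

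Between 6 h and 3 h 3716 genes differed. The effect at 6 h minus that at 3 h was positive for TT4 (2.55), AT1G29965 (2.53), AT1G64500 (2.35), AT1G11700 (2.22), AT3G02910 (1.91), AT5G28920 (1.83), LHY (1.38), AT4G11290 (1.30), AT5G24580 (1.29), AT5G22390 (1.01) and NIP6;1 (1.01). A negative difference was found for LHCB2.1 (-4.48), COR27 (-2.91), AT4G33980 (-2.84), AT3G25572 (-2.78), ELF4 (-2.10), GSTU25 (-1.99), CCA1 (-1.81), AT2G29500 (-1.64), AT3G13310 (-1.24) and TOC1 (-0.93).

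Between shoots and roots at 3 h 781 genes differed. The effect in shoots minus that in roots was positive for FAMT (4.15), AT3G59930 (3.78), BHLH100 (3.40), PDF1.2b (2.92), AT3G25572 (2.39) and AT3G13310 (1.52). The reverse sign was found for AT1G64500 (-3.09), AT1G15830 (-2.05), PAL4 (-1.98), AT5G24580 (-1.84), ORP4C (-1.82), AT5G28920 (-1.80), AT1G11700 (-1.73) and UMAMIT14 (-1.63).

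FAMT was called at 3 h in only 1 of the 6 fits that left out 1 library. The comparisons with 1 h and 6 h use the same 3 h libraries, so they are not independent of one another.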

How the results depend on the processing

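Every t-chalcone library was shallower than every EtOH library, so depth and treatment cannot be told apart, in low genes or in abundant ones. The counts of calls moved more than the directions of the named genes.

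Genes called in all, higher and lower (1307, 311 and 996) became 8, 7 and 1 with all shoot libraries, shallow ones included, 131, 114 and 17 with the 6 libraries alone, 804, 486 and 318 with TMM, 794, 484 and 310 with median-of-ratios scaling, 2543, 490 and 2053 with array weights, 620, 485 and 135 with edgeR, 721, 527 and 194 with DESeq2, and 328, 291 and 37 with edgeR on the 6 libraries. Leaving out 1 library gave 275 to 3018, 142 to 370 and 133 to 2648. EtOH replicate 2 was the library left out at the lowest counts, t-chalcone replicate 2 at the highest.

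Some alternatives were chosen after seeing the data. With TMM and 1 library left out the counts were 407, 291 and 116 for EtOH replicate 1, 292, 235 and 57 for EtOH replicate 2, 572, 345 and 227 for EtOH replicate 3, then 421, 327 and 94 on leaving out replicate 1 of t-chalcone, 1957, 800 and 1157 on leaving out its replicate 2, and 386, 293 and 93 on leaving out its replicate 3. Thinning the 6 libraries to the shallowest gave 2044, 431 and 1613, and with TMM 1461, 803 and 658. Under thinning the change of TT4 turned to 0.17, and with TMM to 0.29, and that of MYB34 to 0.052; neither gene was called, and the cause was not tested. The other filters and pseudocounts, and leaving out libraries with an S number, gave 1206 to 1465 genes.

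The differences between times fell to 3 genes (3 h against 1 h) and 131 (6 h against 3 h) with all shoot libraries. The difference between tissues fell to 15 genes with all libraries, 169 with the 3 h libraries alone, 477 with TMM and 447 with edgeR.

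No paired analysis was possible because the labels give no replicate numbers, and numbers given in accession order pair no samples.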
